A study of Mus musculus with 10 samples.

Results

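CD4+CD25- T cells that lacked both Il4 and, through ThPOKCre, the floxed Tgfbr2 alleles were compared with WT cells from the same kind of tumour. The comparison, IL4-/-KO against WT, was defined by the genotype labels alone and used no measured value. It covered 4 of the 10 libraries, 2 replicates of each genotype, and 14473 of the 17363 named genes, those that reached 10 normalized counts in 2 or more of 8 replicates. All animals were 23-week-old C57BL/6 mice that carried the PyMT transgene, which drives mammary tumours, and Tgfbr2fl/fl. WT denotes these floxed mice without Cre, KO the same with ThPOKCre, IL4-/- those with Il4-/- and no Cre, and IL4-/-KO those with both. The 8 replicates come from 4 genotypes, and each KO replicate was sequenced from 2 libraries made from 1 RNA extraction. ThPOKCre is expressed from the ThPOK locus, a gene of the CD4 helper lineage, so the deletion is not limited to tumour-infiltrating cells, whereas Il4-/- affects all cells of the animal. Whether replicates were separate mice or pools is not stated in the labels. The p-values therefore reflect only how far these samples spread, and that spread may be technical.

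TGF-beta ligands bind a receptor made of TGFBR1 and TGFBR2 chains, and the activated complex phosphorylates SMAD2 and SMAD3, which enter the nucleus with SMAD4. Among the genes induced by this signal are its own inhibitors, including Smad7, Ski, Skil, Pmepa1 and Ldlrad4. In T cells the pathway is known to restrain effector differentiation, and IL-4, acting through the IL-4 receptor and STAT6, is the classical inducer of the type 2 helper programme with its cytokines IL-4, IL-5 and IL-13.

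The WT libraries held 17121030 and 18479090 reads from named genes, and the IL4-/-KO libraries 31996804 and 31285329. No WT library belonged to the deeper set and no IL4-/-KO library to the shallower set, so genotype and library depth cannot be told apart in this comparison. Both IL4-/- libraries, with 28552482 and 33802781 reads, were of the deeper set as well, so the same holds for IL4-/- against WT. Only the KO RNA was sequenced at both depths. The difference between its repeat and first libraries is given below for some genes of the comparison and the interaction, among them several where it is large. One WT library stood apart: epithelial markers summed to 189924 normalized counts in WT replicate 1 against 27679 in WT replicate 2, with 14194 and 43494 in IL4-/-KO. T cell receptor complex genes summed to 140276 and 228706 in WT and to 219778 and 224321 in IL4-/-KO. In bulk samples of this kind, fewer cells of a type and less RNA per cell cannot be told apart.

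The targeted genes were examined first. Tgfbr2 (chromosome 9, 116084293 to 116175360 on mm10) had 7876 and 7894 normalized counts for WT against 7762 and 8205 for IL4-/-KO, a log2 fold change of 0.02 ± 0.27 (SE). These counts cover the whole gene, including parts outside the floxed segment, so they do not check the deletion. Il4 (chromosome 11, 53602982 to 53618669) had 107 and 276 normalized counts for WT against 99 and 40 for IL4-/-KO, with a log2 fold change of -1.44 ± 0.80 that did not pass the test (limma, adjusted p = 0.903). Reads over Il4 were therefore lower in both IL4-/-KO libraries than in either WT library but were not absent, and here too the gene-level count does not resolve the altered part of the allele.

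Among the 14473 genes, 3 passed an adjusted p of 0.05 in limma with Benjamini-Hochberg adjustment, which is 0.0207% of the genes tested. Klrg1 and Mmp9 rose and Ski fell in the double mutant. Klrg1 encodes an inhibitory lectin receptor of differentiated effector T cells and NK cells, Mmp9 a secreted gelatinase, and Ski a transcriptional repressor that binds SMAD proteins. Without adjustment, 855 genes (5.91%) had a p under 0.05, 470 higher (3.25%) and 385 lower (2.66%). This balance turned when an IL4-/-KO replicate was left out, to 176 higher and 351 lower without replicate 1 and 212 higher and 363 lower without replicate 2. The libraries of the groups did not overlap for 4743 genes (32.8%), 2354 higher (16.3%) and 2389 lower (16.5%) in IL4-/-KO.

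**Figure D1:**
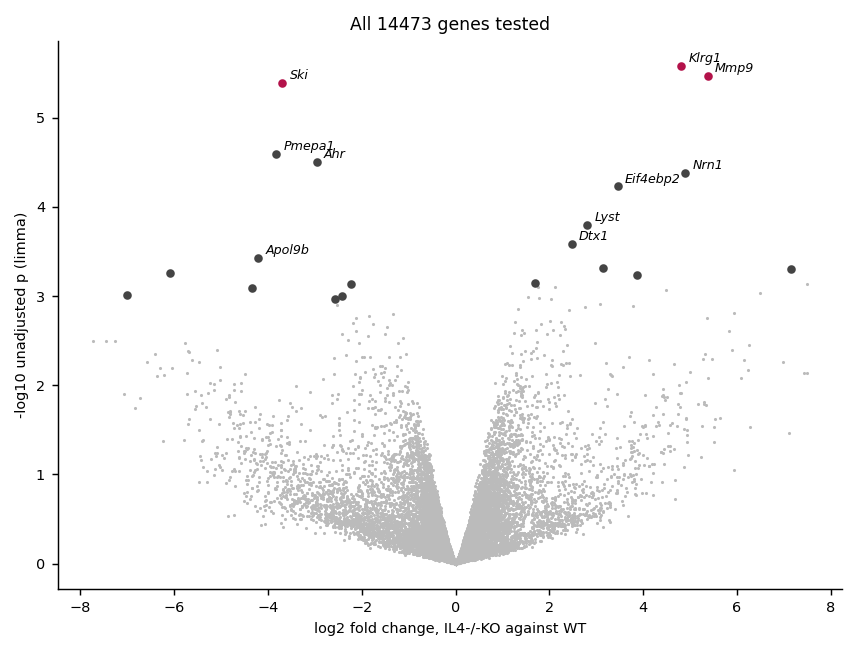
Each point is 1 of the 14473 genes tested; the x axis gives the log2 fold change of IL4-/-KO against WT and the y axis the negative log10 of the unadjusted limma p. The 3 genes past the adjusted threshold, Klrg1, Mmp9 and Ski, are red, the other genes named by the selection rule are dark grey, and Pmepa1 and Ahr are the next lowest in p.

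Klrg1 (chromosome 6, 122270596 to 122282882) had 338.5 and 206.0 normalized counts for WT against 7198 and 7600 for IL4-/-KO. Both double mutant libraries lay far above both WT libraries and above every KO and IL4-/- library as well. The log2 fold change was 4.80 ± 0.40 (SE; limma, adjusted p = 0.0196). For KO the first libraries gave 2976 and 5493 normalized counts and the repeats 2745 and 4928, and IL4-/- had 428.5 and 514.7. The first and repeat KO libraries of the same RNA differed by -0.14 on the log2 scale, so this gene moved little between library sets.

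Mmp9 (chromosome 2, 164940780 to 164955850) had 92.2 and 108.3 normalized counts for WT against 4714 and 3726 for IL4-/-KO, a log2 fold change of 5.38 ± 0.46 (SE; limma, adjusted p = 0.0196). The WT libraries were close to each other and the lowest of the series. KO had 3205 and 4661 in the first libraries and 3473 and 11747 in the repeats, while IL4-/- had 276.2 and 248.6. Mmp9 is also a neutrophil product. The 8 other neutrophil markers summed to 2072 and 668 normalized counts for WT against 1114 and 1589 for IL4-/-KO, and to 10743 and 2466 in the first KO libraries. Among them S100a8 had 291 and 21 normalized counts for WT against 13 and 121 for IL4-/-KO, and Retnlg 28 and 9 for WT against 1 and 3 for IL4-/-KO, whereas Csf3r, the G-CSF receptor gene, had 0 and 51.5 for WT against 132 and 101 for IL4-/-KO. Of the 8 neutrophil markers tested, Mmp9 included, 3 were higher and 5 lower in IL4-/-KO. Their part in the Mmp9 difference was not tested.

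Ski (chromosome 4, 155154075 to 155222592) had 6754 and 8607 normalized counts for WT against 537.5 and 641.2 for IL4-/-KO, and fell by 3.70 ± 0.33 on the log2 scale (SE; limma, adjusted p = 0.0196). The double mutant libraries were the lowest of the first libraries, and the first libraries of KO had 3254 and 4448 against 1537 and 1232 in IL4-/-. The repeat libraries of the same KO RNA gave 586.8 and 1350, a difference of -2.09 on the log2 scale from the first on average. With a term for the library depth set, the difference for Ski was -1.60 (limma, adjusted p = 0.999), that for Klrg1 4.94 (adjusted p = 0.228) and that for Mmp9 4.65 (adjusted p = 0.616). That fit counted the first and repeat KO libraries as separate samples, although they share RNA. Only KO has libraries in both sets, so the term assumes that the KO shift also holds for WT and IL4-/-KO. This assumption was not tested.

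None of the 3 calls remained when either WT or either IL4-/-KO library was left out, although the direction and size of the differences did: adjusted p was 0.0744 without WT replicate 1, 0.188 without WT replicate 2, 0.493 without IL4-/-KO replicate 1 and 0.304 without IL4-/-KO replicate 2 (limma). It was 0.132 and 0.114 without the first and second IL4-/- replicate, and the 3 genes were called without either KO replicate. Without the repeat library of KO replicate 2, a choice made after seeing the data, Klrg1 (adjusted p = 0.0236) and Mmp9 (0.00517) were called and Ski was not (0.129, limma). None of the 3 was called with only the WT and IL4-/-KO replicates in the fit, with the repeat KO libraries alone or without the variance trend. On reads recovered from the deposited values, edgeR called 0 genes (719 at an unadjusted p under 0.05) and DESeq2 called 168, which included Klrg1, Mmp9 and Ski.

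The genes next in order did not pass the adjusted test. Of those higher in IL4-/-KO, Nrn1, which encodes neuritin, a membrane-anchored protein, had 92.2 and 34.3 normalized counts for WT against 2174 and 1334 for IL4-/-KO (log2 fold change 4.89, limma adjusted p = 0.0997). Izumo1r, the gene of folate receptor 4 on T cells, had 789 and 1084 for WT against 3172 and 2844 for IL4-/-KO (1.70, adjusted p = 0.564). Dtx1, a ubiquitin ligase of the Notch pathway, had 1055 and 1621 for WT against 6279 and 8374 for IL4-/-KO (2.47, adjusted p = 0.414). Its repeat KO libraries lay above the first by 0.82 on the log2 scale, and with the library set term its difference was 1.65. Groups that do not overlap were part of the rule that selected these and the following genes, and are no separate result.

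Eif4ebp2, which encodes a repressor of translation initiation, had 266 and 120 normalized counts for WT against 1930 and 2003 for IL4-/-KO (3.45, limma adjusted p = 0.121). Its KO libraries gave 316 and 323 at first and 1654 and 2623 in the repeats of the same RNA, so this gene differed between library sets by 2.70 on the log2 scale. With the library set term its difference was 0.75. Lyst, a regulator of lysosome-related organelles, had 514 and 923 for WT against 5453 and 4275 for IL4-/-KO (2.81, adjusted p = 0.288) and was higher in the repeat than in the first KO libraries by 1.16.

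Ptpn5, a tyrosine phosphatase gene, and Map6, which encodes a microtubule-associated protein, were higher by 3.87 and 3.14 on the log2 scale, both with a limma adjusted p of 0.564. Sh2d5 was at 0 in both WT libraries and had 70.5 and 276.6 normalized counts in IL4-/-KO, at least 43.9-fold higher than a floor of 3 reads per WT library (3.96 normalized counts on average). These low-count genes carried larger standard errors than the genes above.

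Among the genes lower in the double mutant, Pmepa1 (chromosome 2, 173224458 to 173276533), a transmembrane inhibitor of TGF-beta signalling, had 6580 and 5748 normalized counts for WT against 400 and 472 for IL4-/-KO. The log2 fold change of -3.82 ± 0.43 missed the threshold (limma, adjusted p = 0.0909). KO had 960 and 1903 in the first libraries and 297 and 647 in the repeats, and IL4-/- had 2598 and 1469. The double mutant libraries were the lowest among the first libraries, but the repeat KO libraries lay on either side of them.

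Ahr (chromosome 12, 35497974 to 35535038), the aryl hydrocarbon receptor, had 3209 and 4511 normalized counts for WT against 595 and 402 for IL4-/-KO, with a log2 fold change of -2.96 ± 0.35 (SE; limma, adjusted p = 0.0909). KO had 440 and 488 in the first libraries and 922 and 882 in the repeats, and IL4-/- had 2437 and 3200. With the library set term the difference for Ahr was -3.92 (adjusted p = 0.228). All libraries of the Cre-carrying genotypes, first and repeat, were thus below all libraries without Cre for Ahr.

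Apol9b and Apol9a, near-identical apolipoprotein L genes between which reads may have been split, differed by -4.20 and -4.35 on the log2 scale (limma, adjusted p = 0.541 and 0.564). Ecm1, which encodes a secreted matrix protein made by type 2 helper cells, had 3068 and 4762 normalized counts for WT against 1106 and 602 for IL4-/-KO (-2.23, adjusted p = 0.564). Its KO libraries, between 3118 and 4993, resembled WT in level, and IL4-/- had 1906 and 2941. Arhgap29, a GTPase-activating protein gene, had 873 and 176 for WT against 9.7 and 2.2 for IL4-/-KO. Chrdl2, a BMP antagonist gene, had 317.5 and 50.2 in WT and was at 0 in both IL4-/-KO libraries, at least 83.7-fold lower relative to a floor of 3 reads per library. It was also at 0 in both repeat KO libraries. The first KO libraries of the same RNA differed from WT by -2.06 on the log2 scale, and the repeats differed from the first by -4.93. With the library set term the difference of Chrdl2 between IL4-/-KO and WT was -2.06.

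Cdh1, the gene of E-cadherin, which epithelium and some T cells express, had 11251 and 8116 normalized counts for WT against 1110 and 2853 for IL4-/-KO (-2.42, limma adjusted p = 0.564). Both WT libraries were high for Cdh1, although their epithelial sums, given above, differed from each other. The part of epithelial RNA in this difference was not tested.

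**Figure D2:**
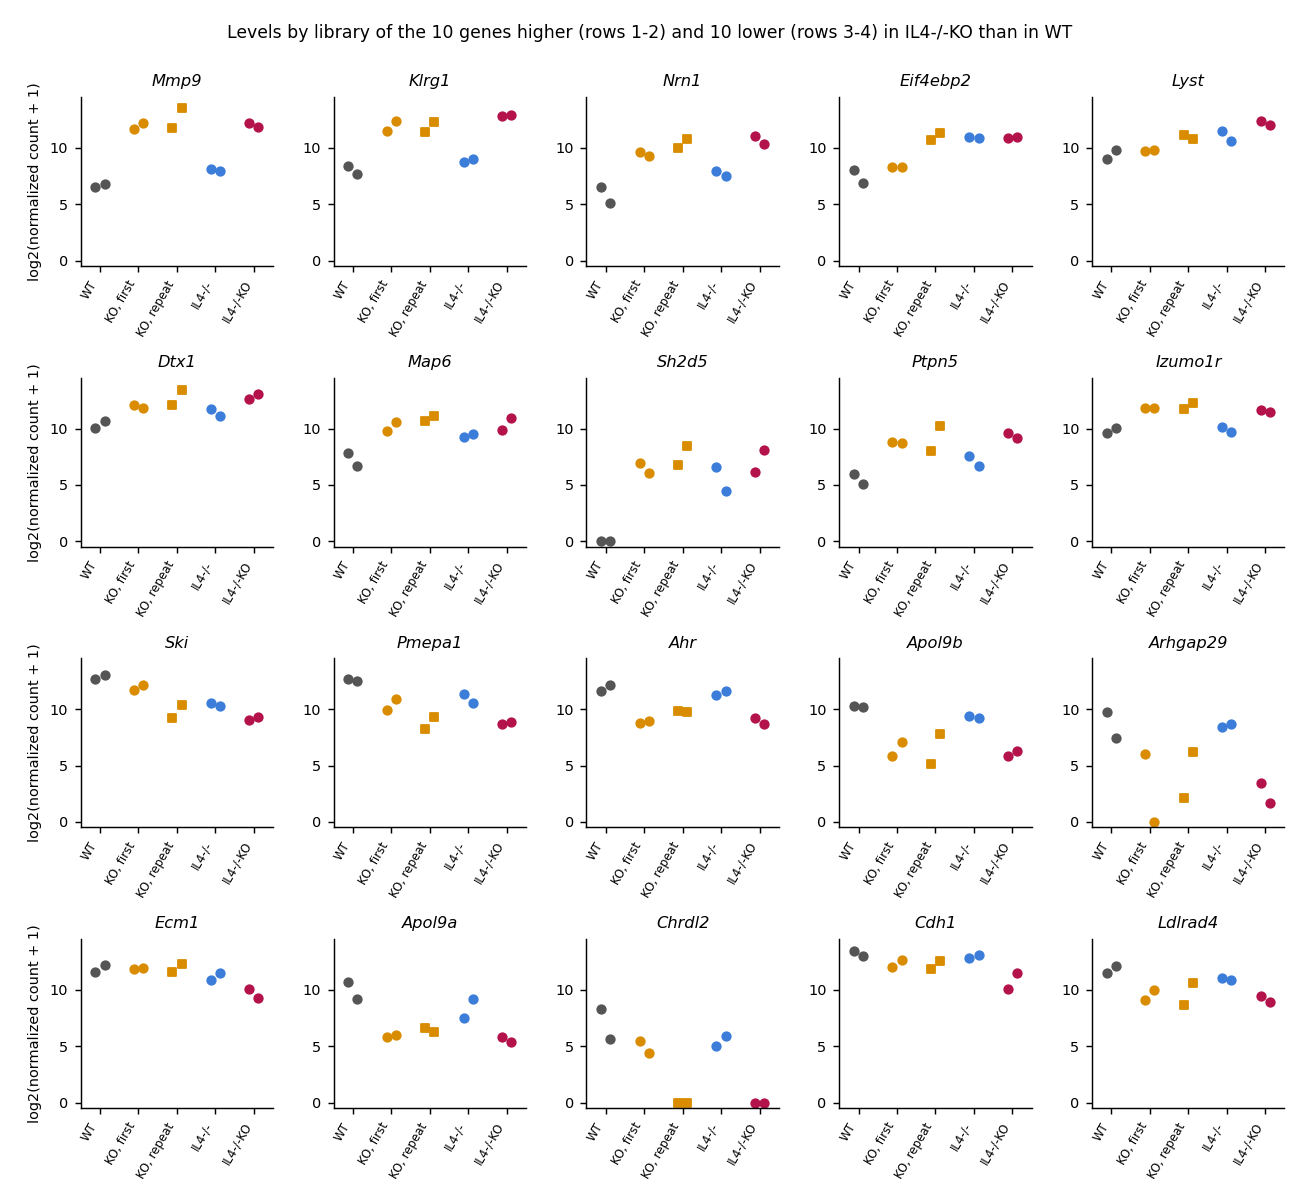
Panels show log2(normalized count + 1) for the 10 genes higher (upper rows) and the 10 lower (lower rows) in IL4-/-KO than in WT; circles are first libraries, squares the repeat libraries of the same KO RNA. WT and IL4-/-KO points do not overlap in any panel, and the first and repeat KO libraries lie apart for Nrn1, Eif4ebp2, Lyst, Map6, Ski, Pmepa1, Ahr, Apol9a and Chrdl2.

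The differences of the single mutants from WT are given beside those of the double mutant, and all of them were computed against the same WT replicates. The IL4-/- libraries, like those of IL4-/-KO, were of the deeper set, so their differences from WT cannot be told apart from library depth. For Klrg1 the log2 fold change was 4.80 in IL4-/-KO, 3.86 in KO and 0.83 in IL4-/-. For Mmp9 it was 5.38, 5.70 and 1.38, and for Nrn1 4.89, 4.17 and 1.85. For Ahr it was -2.96 in IL4-/-KO, -2.48 in KO and -0.45 in IL4-/-. For Ski it was -3.70, -1.69 and -2.47, and for Pmepa1 -3.82, -2.78 and -1.65. Klrg1, Mmp9, Nrn1, Pmepa1 and Ahr thus had values in the double mutant closer to those of KO than to those of IL4-/-. This held with the first and with the repeat KO libraries alike. For Ski the order of the single mutants turned with the KO libraries: the repeats alone gave -3.10 against WT, beyond the -2.47 of IL4-/-, and both sets averaged fell short of it. For Pmepa1 the first libraries gave -2.19 and the repeats -3.81. For Ecm1 it was -2.23 in IL4-/-KO, 0.03 in KO and -0.69 in IL4-/-.

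**Figure D3:**
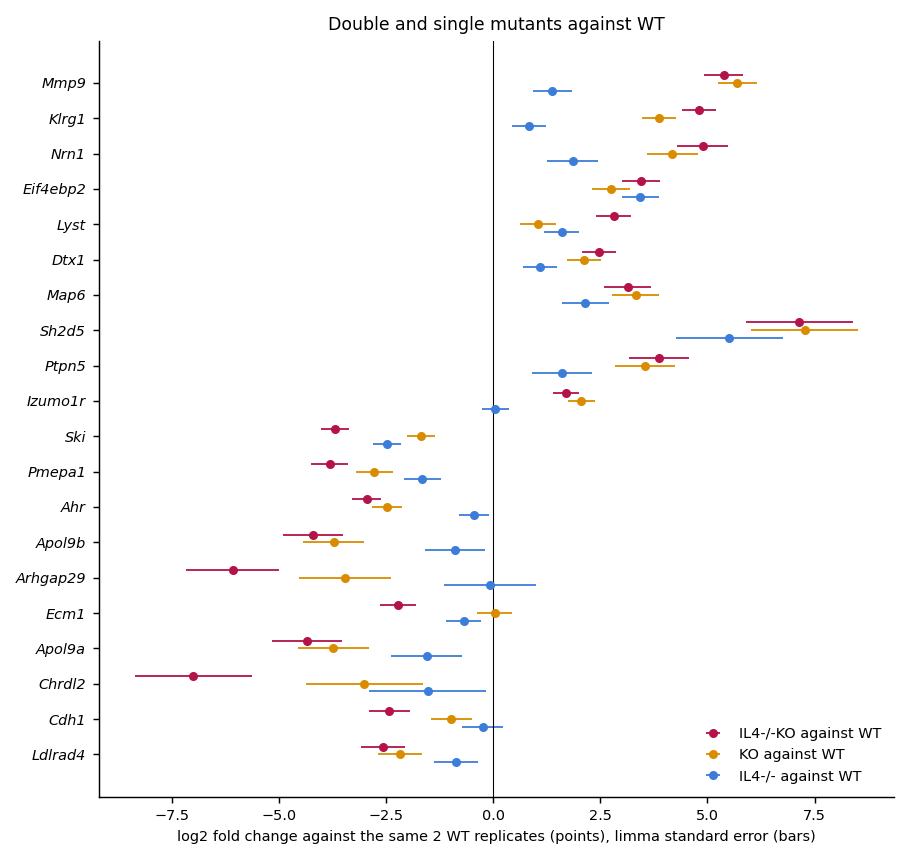
Points give the log2 fold change of IL4-/-KO (red), KO (orange) and IL4-/- (blue) against the same 2 WT replicates, with bars for the limma standard error, for the 20 genes selected in the comparison. Fitted values for Sh2d5 and Chrdl2, which were at 0 in every library of 1 group, depend on the pseudocount; Ecm1 lies near 0 in KO and at -2.23 in IL4-/-KO.

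Whether the double mutant differed from the sum of the single mutants' differences was tested as an interaction of Tgfbr2 deletion with Il4 loss. With limma 0 of 14473 genes (0%) passed the adjusted threshold, with 510 (3.52%) at an unadjusted p under 0.05. edgeR also called 0 and DESeq2 called 35 (0.242%), 5 higher and 30 lower. Of the 3 genes named in the lower direction, Tgfb1, the gene of the main TGF-beta ligand of lymphocytes, had the highest level. It had 1606 and 1851 normalized counts in the WT libraries, 4046 and 3644 in the first KO libraries, 3413 and 3881 in IL4-/-, and 2650 and 2813 in IL4-/-KO. The repeat KO libraries gave 5153 and 9097, higher than the first by 0.83 on the log2 scale. Its double mutant level lay between WT and the single mutants, and the interaction was -2.06 on the log2 scale (limma, adjusted p = 0.988), or -1.57 with the first KO libraries alone and -2.40 with the repeats. With the library set term the difference of Tgfb1 between IL4-/-KO and WT turned from 0.66 to -0.17. Hoxb2, a homeobox gene, and Pgr, the progesterone receptor gene, were at 0 or near it in WT and IL4-/-KO; Hoxb2 had 143 and 146 in IL4-/-, and Pgr 59.1 and 198. Among the KO libraries both genes were detected in all but the repeat of replicate 2, where they were at 0: Hoxb2 had 27.9 and 118 at first and Pgr 27.9 and 72.2, and the repeat of replicate 1 gave 49.3 and 32.3.

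In the higher direction Ice2, a subunit gene of the little elongation complex, had 340 and 602 normalized counts in the WT libraries, 94.1 and 40.7 in the first KO libraries, 0 and 53 when the same RNA was repeated, but 361 and 383 for IL4-/-KO. Its interaction was 3.39, or 6.10 with the repeat KO libraries alone, and with the library set term its difference between IL4-/-KO and WT turned from -0.28 to 2.82. Ncoa7, a gene of a nuclear receptor coactivator, had 2901 and 1736 in WT, 498 and 629 at first and 583 and 116 on repetition in KO, 890 and 906 in IL4-/- and 1273 and 747 in IL4-/-KO. Cd8a had 227 and 783 in WT, 0 and 3.2 in IL4-/- and 37.1 and 62.1 in IL4-/-KO. Its KO difference from WT was -2.84 on the log2 scale at first and -2.47 on repetition. Cd8a also marks CD8 T cells, whereas the sort was for CD4+ cells. Sums over the 2 CD8 T cell markers were 694 and 1126 (WT), 199 and 115 (IL4-/-) and 341 and 278 (IL4-/-KO). KO sums were 234 and 481 at first, then 268 and 524 on repetition. How much CD8 T cells contributed to the Cd8a interaction was not tested. Ice2, Ncoa7 and Cd8a each had lower values than WT in at least 1 single mutant. For Ice2 both IL4-/-KO libraries lay above all KO libraries. For Ncoa7 IL4-/-KO replicate 2 (747) lay below both IL4-/- libraries and replicate 1 (1273) above them. For Cd8a the double mutant differed from WT by -3.11 on the log2 scale, lower than KO but above IL4-/-.

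Gene lists were described by counts and medians, beside the same for all genes tested: of the 14473 genes, 47.6% had a log2 fold change above 0 and 52.1% below 0, with a median of -0.03. Of the same genes 5.91% had an unadjusted p under 0.05 in limma, 3.25% higher and 2.66% lower. Apart from Klrg1, Mmp9, Ski, Pmepa1 and Ahr, every listed gene had an adjusted p of at least 0.564 (limma), so the unadjusted counts below describe the lists and do not call their members. The feedback inhibitors and target genes of TGF-beta had the lowest median of the 22 lists of T cell states and functions. Of the 14 members, 13 were lower and 1 higher in IL4-/-KO, 8 had an unadjusted p under 0.05, all of them lower, and the median log2 fold change was -1.67. The median for the same genes was -1.67 in KO and -0.42 in IL4-/-, against the same WT.

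Within that list the inhibitors came first. Skil, a Ski relative that also represses SMAD targets, had 7125 and 20725 normalized counts for WT against 3497 and 1767 for IL4-/-KO. Smad7, the inhibitory Smad, had 2156 and 3318 for WT against 1137 and 669 for IL4-/-KO. Ldlrad4, which sequesters receptor Smads, had 2848 and 4440 for WT against 720 and 495 for IL4-/-KO. Smurf2, a ubiquitin ligase for the receptor, had 896 and 2738 for WT against 532 and 638 for IL4-/-KO. In the whole list 9 of 14 members were lower without overlap, beside 16.5% of all genes tested.

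Of the target genes, Nt5e, which encodes the ecto-nucleotidase CD73, had 3669 and 4897 normalized counts for WT against 2556 and 1114 for IL4-/-KO. Its level in the first KO libraries was 254 and 633, so the double mutant lay between KO and WT. Itgae, the alpha E integrin of tissue-resident T cells, had 1749 and 11950 for WT against 1878 and 395 for IL4-/-KO, and its groups overlapped. Tgfbi, the only member of the list with a higher value, had 179 and 269 for WT against 921 and 233 for IL4-/-KO. The list median stayed between -2.04 and -1.32 when any 1 replicate was left out, with 12 or 13 members lower.

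The ligands, receptors, Smads and activators of the pathway were divided, 7 higher and 7 lower, with a median of -0.05. Tgfbr3, the betaglycan co-receptor, had 1031 and 2431 normalized counts for WT against 152 and 453 for IL4-/-KO (log2 fold change -2.59). Lrrc32, which encodes GARP, the surface anchor of latent TGF-beta, had 191 and 426 for WT against 1808 and 940 for IL4-/-KO (2.19). Smad3 had 1388 and 1225 for WT against 2428 and 2664 for IL4-/-KO (0.96), whereas Smad2 and Smad4 differed by -0.11 and -0.29. Tgfbr1 overlapped, with 765 and 1770 for WT against 2311 and 781 for IL4-/-KO. In this list 3 of 14 members were higher and 2 lower without overlap, beside 16.3% and 16.5% of all genes tested.

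The list of IL-4 receptor signalling and STAT6 response genes had 9 members higher and 4 lower, a median of 0.27 and 1 member with an unadjusted p under 0.05. That member was Batf, an AP-1 family factor of effector differentiation, with 1400 and 1504 normalized counts for WT against 3746 and 3357 for IL4-/-KO, and 12548 and 3522 in the first KO libraries. Stat6 had 6814 and 9740 for WT against 7502 and 7946 for IL4-/-KO, and Il4ra, the receptor chain, 5096 and 8933 against 9331 and 7265. Gata3, the type 2 lineage factor, had 2661 and 4286 for WT against 5513 and 4985 for IL4-/-KO, non-overlapping but different by 0.63 ± 0.41 (SE). Across the list 4 of 13 members were higher and 0 lower without overlap, beside 16.3% and 16.5% of all genes tested.

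Type 2 helper genes varied within the double mutant. Il5, a neighbour of Il4 on chromosome 11, had 36 and 38 normalized counts for WT against 681 and 15 for IL4-/-KO, so the replicates fell on either side of WT. The KO libraries held 538 and 4988 at first. Il13 had 7 and 11 for WT against 11 and 1 for IL4-/-KO, against 6 and 118 in the first KO libraries. Il1rl1, the IL-33 receptor, had 290 and 236 for WT against 1004 and 460 for IL4-/-KO, and Ccr8, a chemokine receptor of type 2 and regulatory T cells, 4065 and 8967 against 2514 and 849. Ptgdr2, the prostaglandin D2 receptor CRTH2, was at 0 in both WT libraries and had 37 and 23 in IL4-/-KO, at least 7.61-fold higher relative to the floor, and its KO libraries were at 0 except for 1 repeat library with 73.9. Of 13 members tested 7 were higher and 6 lower, and the list median of 0.62 became -0.46 without WT replicate 2 and -1.09 without IL4-/-KO replicate 1.

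Type 1 helper genes were mostly higher, 15 of 17, with a median of 0.83, but the median was 0.11 without WT replicate 1. Ccl5, a chemokine of effector T cells, had 3912 and 5002 normalized counts for WT against 16761 and 23593 for IL4-/-KO (log2 fold change 2.17). Il18rap and Il12rb2, chains of the IL-18 and IL-12 receptors, differed by 2.15 and 2.58. Tbx21, the type 1 lineage factor T-bet, had 2787 and 9708 for WT against 10174 and 12626 for IL4-/-KO, and Ifng 3733 and 9012 against 10903 and 6971. The WT replicates differed widely for this list, with summed levels of 56786 and 156480 against 141423 and 129177 in IL4-/-KO.

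In the cytotoxic granule and NK receptor list, 11 of 15 members were higher and the median was 0.73, or 0.07 without WT replicate 1. Apart from Klrg1, Gzma, which encodes granzyme A, had 1213 and 2334 normalized counts for WT against 6835 and 4112 for IL4-/-KO, and Cst7, the gene of cystatin F, 1004 and 1071 against 3620 and 3236. Gzmb, the gene of granzyme B, had 3782 and 10602 for WT against 15750 and 7887 for IL4-/-KO, and its groups overlapped. The lectin receptors Klrk1, Klrd1 and Klrc1 had log2 fold changes of 0.91, 0.58 and 1.58, and for none of them did the test pass.

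NK cell markers, listed separately, summed to 1864 and 3607 normalized counts for WT against 9476 and 7394 for IL4-/-KO, and all 6 tested were higher, with Ncr1, the defining NK receptor, at 0 and 8 for WT against 59 and 0 for IL4-/-KO. Their part in the cytotoxic list was not tested. Gzma belongs to both lists, and it made up the larger part of the NK sum in each WT and IL4-/-KO library. Klrb1c, the NK1.1 antigen, had 86 and 168 for WT against 904 and 988 for IL4-/-KO.

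Type 17 helper genes were mixed, 9 higher and 5 lower, with a median of 0.28. Besides Ahr, Rora, which encodes a nuclear receptor of this lineage, had 2056 and 5652 normalized counts for WT against 8816 and 8391 for IL4-/-KO, and Il23r 3 and 148 against 497 and 238. Il17a, the cytokine gene that names the lineage, had 178 and 135 for WT against 233 and 150 for IL4-/-KO, and its groups overlapped. Ccl20, a ligand of CCR6, had 45 and 49 for WT against 9 and 0 for IL4-/-KO.

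The list of regulatory T cell genes had the highest median of the 22 lists, 1.06, with 12 of 15 members higher and 6 with an unadjusted p under 0.05. Foxp3, the lineage factor, had 437 and 182 normalized counts for WT against 5327 and 1511 for IL4-/-KO, and IL4-/- had 1415 and 1141. Il2ra, which encodes CD25, the antigen used to exclude cells in the sort, had 400 and 1089 for WT against 4053 and 2430 for IL4-/-KO. Tnfrsf9, a costimulatory receptor, had 3335 and 2023 for WT against 13757 and 5057 for IL4-/-KO. All 3 genes were higher in IL4-/-KO replicate 1 than in replicate 2. In the whole list 6 of 15 members were higher and 2 lower without overlap, beside 16.3% and 16.5% of all genes tested. Ebi3 and Nrp1 differed by 2.19 and 1.34, whereas Ctla4 had 5154 and 6204 for WT against 12165 and 3907 for IL4-/-KO and Ikzf4 was lower by 1.62. The median was 0.15 without IL4-/-KO replicate 1, 0.28 without WT replicate 1 and 1.93 without IL4-/-KO replicate 2.

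Follicular helper genes had 8 members higher and 3 lower, with 0 at an unadjusted p under 0.05 and a median of 0.68. Slamf6 and Btla, a costimulatory and an inhibitory receptor, differed by 0.80 and 1.01. In the exhaustion and checkpoint list, 10 of 13 members were higher with a median of 0.62, or 0.21 without WT replicate 1. Tox, a chromatin factor of chronically stimulated T cells, had 935 and 1748 normalized counts for WT against 3923 and 2841 for IL4-/-KO, and IL4-/- had 4804 and 2678. Tigit had 275 and 866 against 3079 and 1427. Nr4a1, which is induced by antigen receptor signalling, had 45947 and 51524 for WT against 17988 and 14443 for IL4-/-KO. Pdcd1, the PD-1 gene, differed by 0.68 ± 0.46 (SE).

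Among the genes of tissue residence and adhesion, S1pr5, a sphingosine phosphate receptor of cells that leave tissue, had 28 and 21 normalized counts for WT against 982 and 2062 for IL4-/-KO (log2 fold change 5.82 ± 1.33, limma adjusted p = 0.659). Its KO libraries had 66 and 391 at first and 66 and 1648 in the repeats. The integrin chains Itga4, Itgal, Itgb7 and Itgb1 differed by 1.92, 1.35, 0.94 and 0.90, each without overlap. Across the list 8 of 14 members were higher and 1 lower without overlap, beside 16.3% and 16.5% of all genes tested. Cd69, a residence marker, had 5921 and 15304 for WT against 7726 and 3730 for IL4-/-KO. Of 14 members 9 were higher and 5 lower, and the median was 0.55 (0.27 without WT replicate 1 and 1.09 without WT replicate 2).

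Naive and lymph node homing genes had a median of 0.10, with 8 higher and 5 lower. Ccr7, the lymph node homing receptor, had 8959 and 6621 normalized counts for WT against 4019 and 2921 for IL4-/-KO, and Cd27, a costimulatory receptor, 1424 and 2737 against 5008 and 3367. They lay in opposite directions. Of the 13 members 2 were higher and 2 lower without overlap, beside 16.3% and 16.5% of all genes tested.

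Of 15 costimulation, TNF family and growth cytokine genes, 10 were higher and the median was 0.50. Tnfsf14, which encodes LIGHT, had 278 and 297 normalized counts for WT against 819 and 812 for IL4-/-KO. Tnfsf11, the gene of RANK ligand, had 2259 and 2961 against 1562 and 669. Csf2, the GM-CSF gene, had 173 and 154 in WT, 1131 and 291 in IL4-/-KO and 2158 and 3114 in the first KO libraries. Cytokine receptor chains were higher in 15 of 19 cases with a median of 0.29, which was -0.09 without WT replicate 1. Il10ra differed by 1.10, and Ifngr2, a chain of the interferon gamma receptor, had 3109 and 2044 for WT against 567 and 986 for IL4-/-KO.

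Interferon-stimulated genes were lower in 19 of 20 cases, with a median of -0.82 and 6 at an unadjusted p under 0.05, all lower. Ifit3, an antiviral effector gene, had 6385 and 10525 normalized counts for WT against 2921 and 3221 for IL4-/-KO, and Rtp4, another interferon-induced gene, 5933 and 6888 against 2544 and 2433. Both were also lower in the single mutants, with log2 fold changes of -1.72 and -1.24 in KO and -0.79 and -0.86 in IL4-/-. These KO values average first and repeat libraries, and the repeats differed from the first by -0.58 for Ifit3 and -0.41 for Rtp4. First libraries alone gave KO differences from WT of -1.46 and -1.06. The list median in IL4-/-KO stayed between -1.14 and -0.62 when any 1 replicate was left out. Adding the library set term moved it to -0.51, with 14 members lower and 6 higher. Ifit3 and Rtp4 then differed between IL4-/-KO and WT by -0.83 and -0.95.

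Immediate early and heat shock genes were lower in 14 of 17 cases, with a median of -0.98. Egr1, an immediate early factor, had 50726 and 9654 normalized counts for WT against 2300 and 4546 for IL4-/-KO, and Fos 90311 and 16920 against 5645 and 8735. WT replicate 1, the library with the high epithelial sum, was the higher of the WT libraries for both. Hsp90aa1, a chaperone gene, lay in the other direction, with 8267 and 17413 for WT against 37119 and 24957 for IL4-/-KO. The list median was -0.88 without WT replicate 1 and -0.87 without WT replicate 2. The part of epithelial RNA in these levels was not tested.

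**Figure D4:**
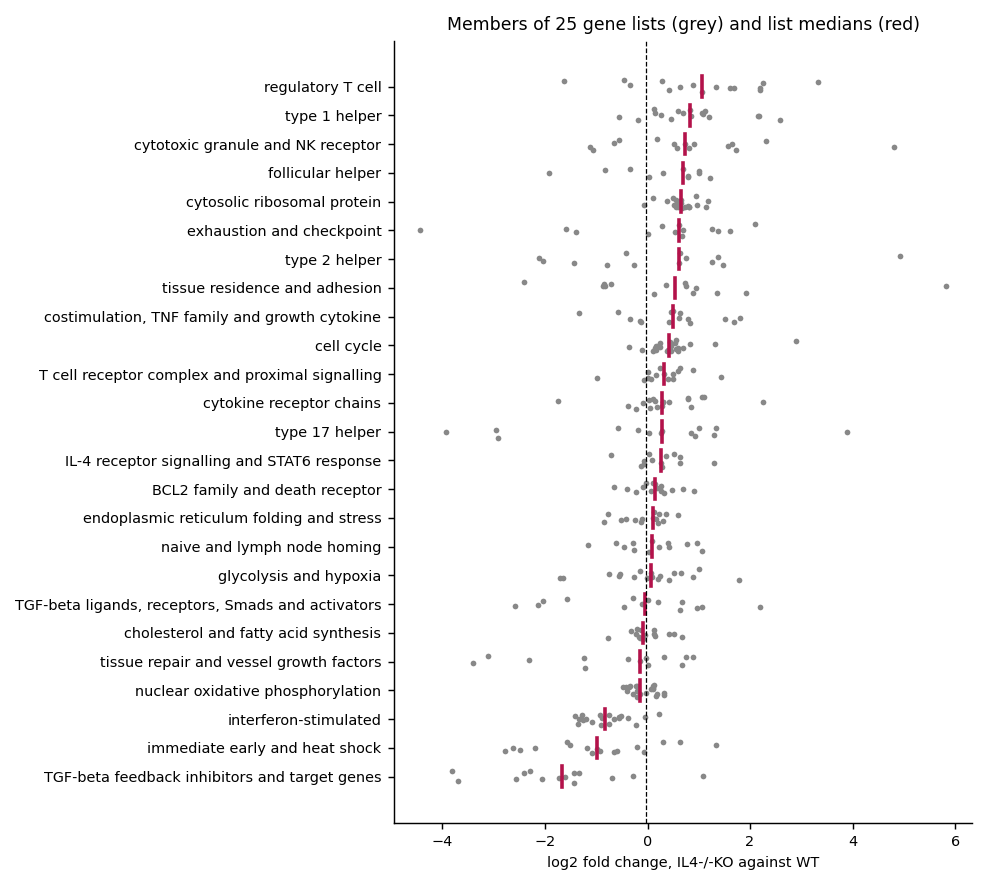
Each grey point is the log2 fold change of 1 member of a gene list in IL4-/-KO against WT, the red bar is the list median, and the dashed line marks the median of all genes tested (-0.03). TGF-beta feedback inhibitors and targets (median -1.67) stand at the bottom and regulatory T cell genes (median 1.06) at the top.

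Cell cycle genes were higher in 22 of 24 cases with a median of 0.42, and 13 were higher with a median of 0.12 without WT replicate 1. Mki67, the Ki-67 gene, had 126 and 1838 normalized counts for WT against 5100 and 2569 for IL4-/-KO, and 2637 and 1741 in IL4-/-. Mcm5, a replication helicase subunit gene, had 2084 and 2732 for WT against 4010 and 4439 for IL4-/-KO. Slc2a3, the glucose transporter GLUT3, had 1433 and 2761 for WT against 6944 and 6752 for IL4-/-KO, with 11419 and 10476 in the first KO libraries (log2 fold change 1.78, limma adjusted p = 0.564). The glycolysis list around it was divided, 11 higher and 8 lower, with a median of 0.08.

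Tissue repair and vessel growth factors had 4 members higher and 8 lower. Vegfa, the main vessel growth factor gene, had 5849 and 840 normalized counts for WT against 237 and 186 for IL4-/-KO, and Hbegf, an EGF family ligand, 5963 and 969 against 302 and 257. For both genes WT replicate 1 was several-fold above WT replicate 2, as it was for the epithelial sum, and the part of epithelial RNA was not tested. Areg, the amphiregulin gene, had 703 and 232 in WT, 1324 and 352 in IL4-/-KO and 2738 and 2247 in the first KO libraries.

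Markers of the sorted cells and of other cell types were read beside these results. Cd4 had 12165 and 13115 normalized counts for WT against 28808 and 40172 for IL4-/-KO (log2 fold change 1.43), whereas Cd3e, Cd3g and Lck differed by 0.49, 0.07 and -0.08. All libraries thus expressed the T cell receptor complex, and Cd4 was higher in both double mutant libraries than in either WT library. Epithelial markers were lower in 14 of 15 cases with a median of -1.45, which became 0.62 without WT replicate 1 and -3.25 without WT replicate 2. Macrophage and monocyte markers summed to 27144 and 26841 for WT against 41476 and 22341 for IL4-/-KO, and 10 of 14 were higher. Ccr2 in that list, a chemokine receptor that effector T cells also carry, had 1626 and 2246 for WT against 16694 and 10053 for IL4-/-KO. It was thus a larger part of the macrophage and monocyte sum in both IL4-/-KO libraries than in either WT library. B cell markers summed to 262 and 456 for WT against 2797 and 1794 for IL4-/-KO, most of it Jchain with 2110 and 1134, while Ms4a1 had 0 and 17 for WT against 21 and 0 for IL4-/-KO. With the mean of the epithelial list as a covariate, 11 genes were called in place of 3, and Klrg1, Mmp9 and Ski were among them.

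**Figure D5:**
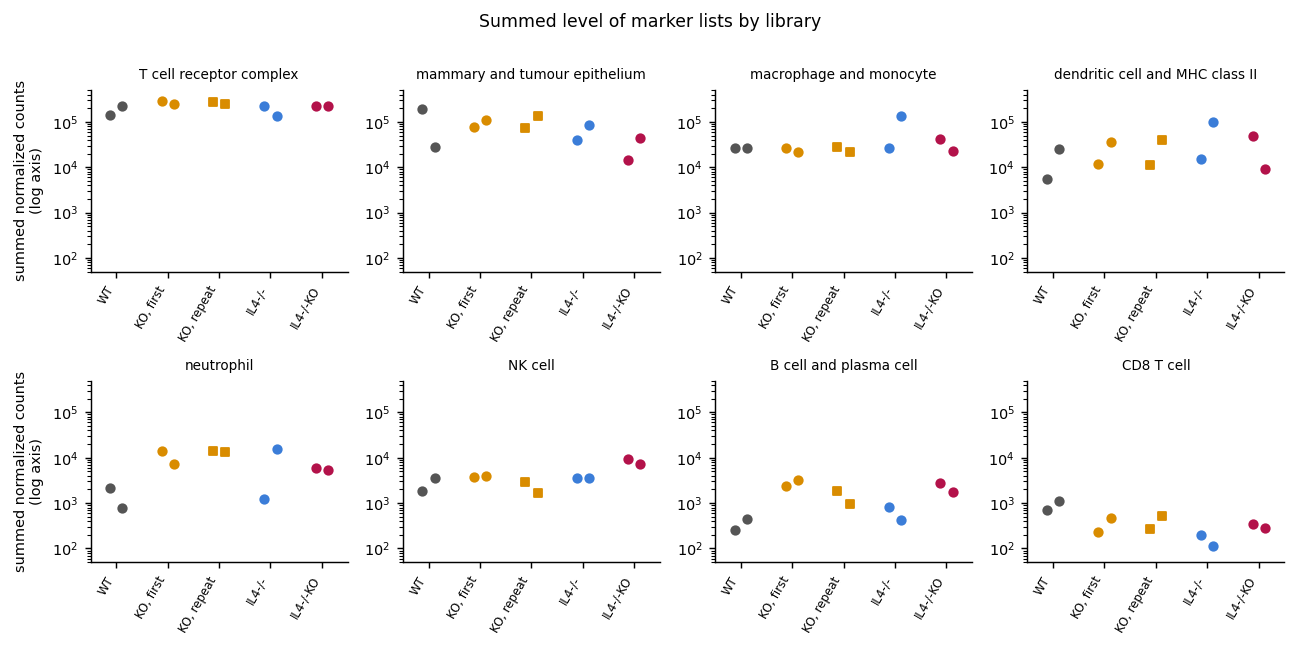
Summed normalized counts of marker lists in each library on a log axis; circles are first libraries and squares the repeats of the same KO RNA. The epithelial sum is highest in WT replicate 1 (189924) and lowest in IL4-/-KO replicate 1 (14194), and the NK and B cell sums are higher in both IL4-/-KO libraries than in both WT libraries. Gzma makes up the larger part of the NK sum in the WT and IL4-/-KO libraries.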

How the data were processed

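RNA from sorted CD4+CD25- T cells was amplified with a SMART-Seq kit, per the labels' protocols, and sequenced in 10 libraries. Per the submitters' processing notes, bcl2fastq 2.18.0, STAR and DESeq2 were used with the mm10 build; the read counter, the annotation and the strand setting are not given in the sources used here, so reads of overlapping genes cannot be told apart. The authors deposited a table of gene signal, counts divided by size factors (normalized counts), with 17370 rows, of which 7 carry no usable gene name; these hold 0.00290 to 0.0205% of each library and were left out. Whole reads were recovered for 100% of values within 0.001 reads and were used only to give depths, floors and the count tests. edgeR called 0 genes on them and DESeq2 168.

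Values were analysed as log2(normalized count + 1), so fold changes of low genes are understated. The first and repeat library of each KO replicate were averaged. The fit with the library set term instead took all 10 libraries as separate samples. limma 3.58.1 in R 4.3.3 was fitted with a mean-variance trend to 8 replicates of 4 genotypes (4 residual degrees of freedom, 7.80 with the shared prior), with two-sided tests and Benjamini-Hochberg adjustment over all genes. The contrasts were IL4-/-KO minus WT and the interaction. The script was tested on simulated data without differences in depth set or cell content. That checks the code and not its fit to these data. Alternatives changed the pseudocount, filter, scaling, variance trend, replicates, KO libraries, block, library set, epithelial covariate and length trend, or used edgeR 4.0.16 or DESeq2 1.42.0.

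The genes named were the targeted genes and type 2 cytokines; the 10 genes higher and 10 lower in IL4-/-KO, called genes first and then by smallest p, with at least 50 normalized counts in the higher group and no overlap; the members of each list past the threshold, or the 2 with the smallest p; and 3 interaction genes in each direction. Other members were named to describe a list. The comparison, the 38 lists (479 genes, 18 of them not matched in the table) and the rule were chosen with earlier results of these data known. Medians of the lists printed are the same when genes at 0 in 1 group are set to their bound. Coordinates are from GENCODE M21, matched by symbol. Transcript lengths, available for 14216 genes, correlated with the log2 fold change with a Spearman coefficient of 0.10 across genes, which are not independent.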

Additional observations from a re-analysis of the deposited data

How the results depend on the processing

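Leaving out any 1 replicate gave 0 to 3 called genes in IL4-/-KO against WT. It gave 527 (without IL4-/-KO replicate 1) to 1682 (without WT replicate 2) genes at an unadjusted p under 0.05, in place of 855. For the interaction it gave 294 (without IL4-/-KO replicate 1) to 1593 (without WT replicate 1) at that level in place of 510, with 1153 without KO replicate 1 and 336 without KO replicate 2. The count of called genes was 7 with quantile normalization, 11 with the epithelial covariate and 168 with DESeq2, all including Klrg1, Mmp9 and Ski. It was 0 with only the WT and IL4-/-KO replicates in the fit, with repeat KO libraries only, with the library set term, with the replicate block and with edgeR. Without the variance trend 4 genes were called, none of them Klrg1, Mmp9 or Ski. Without the repeat library of KO replicate 2, an alternative added after seeing the data, 2 were called, Klrg1 and Mmp9. The numbers of genes at an unadjusted p under 0.05 were 530 with the library set term, 380 of them higher, and 1283 with the epithelial covariate. Removing the trend on transcript length gave 574 higher and 282 lower in place of 470 and 385, and DESeq2 484 higher and 691 lower. The library set term moved the median of all genes from -0.03 to 0.12. For the interaction these numbers were 364 with first KO libraries only and 838 with repeat KO libraries only. They were 213 with the library set term, 767 with the epithelial covariate and 902 with DESeq2, and DESeq2 called 35. Whether replicates with the same number share a batch is not stated in the labels and was not tested. The deviations of replicate 1 from replicate 2 correlated at -0.36 across genes between WT and IL4-/-KO. With the replicate block the adjusted p of Klrg1, Mmp9 and Ski was 0.0837 each (limma), and 717 genes in the comparison and 374 in the interaction had an unadjusted p under 0.05. Tgfbr2 changed sign to -0.53 with the library set term, -0.12 with the length trend removed and ranged from -0.0227 to 0.0574 with 1 replicate left out. In the same way Il5 ranged from -1.23 (without IL4-/-KO replicate 1) to 4.17 and Il13 from -1.94 to 0.37 (without IL4-/-KO replicate 2), and Il13 was 0.34 with quantile normalization. With the library set term Ndufa1 became 0.27 and Srebf2 -0.26, and with 1 replicate left out Srebf1 ranged from -1.58 to 0.038 and Xiap from -0.032 to 1.42, both changing sign without WT replicate 1. The cause of these shifts was not tested. Leaving a group with 1 replicate assumes that it varies like the others. Genes under the floor of 3 reads, about 3.96 normalized counts in WT and 2.20 in IL4-/-KO, are not measurable at these depths.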

Other observations

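Lists of basic metabolism and protein synthesis were read in the comparison of IL4-/-KO with WT, beside a median of -0.03 for all genes tested. Nuclear oxidative phosphorylation genes had a median log2 fold change of -0.15, with 9 higher, 12 lower and 0 of 21 at an unadjusted p under 0.05 in limma. Cholesterol and fatty acid synthesis genes had a median of -0.08, endoplasmic reticulum folding and stress genes 0.11, and genes of the BCL2 family and death receptors 0.14, each with 0 at an unadjusted p under 0.05. Dnajb9, a chaperone of the unfolded protein response, had 1554 and 1652 normalized counts for WT against 907 and 882 for IL4-/-KO, and Ddit3, a stress-induced transcription factor gene, 1356 and 891 against 669 and 628. For Dnajb9 the repeat KO libraries differed from the first by -0.68 on the log2 scale. With the library set term its difference between IL4-/-KO and WT was -0.16. For Ddit3 these values were 0.004 and -0.77. Cytosolic ribosomal protein genes were higher in 19 of 20 cases with a median of 0.65, which was -0.09 without WT replicate 2 and 1.42 without WT replicate 1.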
